A study of Caenorhabditis elegans with 22 samples.

Results

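The right arm of chromosome V of Caenorhabditis elegans is a gene-rich outer stretch of the longest worm chromosome. It holds large families of chemoreceptor genes. Its contact with the nuclear envelope was described here in intestinal cells. It was taken as every 10 kb bin of the deposited count table that starts at position 13950001 of chromosome V or beyond on build ce11. The last position is 20924180. This gave 698 of 10030 nuclear bins, and the choice used position only and no measured value.

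In DamID, the bacterial methylase Dam is fused to a protein of interest and methylates GATC sites near that protein, and methylated fragments are then sequenced. Emerin, EMR-1 in the worm, is an inner nuclear membrane protein, so methylation by Dam::EMR-1 marks DNA near the nuclear envelope. Methylation by a nuclear GFP::Dam fusion serves as the control for how open the chromatin is. CEC-4 is a nuclear envelope protein whose chromodomain binds methylated histone H3 of heterochromatin. MRG-1 is a chromodomain protein of the MRG15 family, associated with active chromatin. The arms of worm autosomes are known for heterochromatin and envelope contact, and their centres for active genes.

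The series holds 22 libraries of L1 larvae in 8 groups, with both fusions in each of 4 backgrounds. Wild type had control RNAi and 3 replicates. The mrg-1 RNAi group had 2, numbered 2 and 3, because per the labels 1 replicate was removed for technical reasons. The deletion cec-4(ok3124) with control RNAi and the same deletion with mrg-1 RNAi, called the combination here, had 3 replicates each. The strains were GW1377 (Dam::EMR-1) and GW1378 (GFP::Dam) with intact cec-4, and GW1379 and GW1380, in the same order, with the deletion. All carried a fusion restricted to the intestine by FLP recombinase under the elt-2 promoter and driven at trace level by the hsp-16.41 promoter without heat shock. RNAi was given to the mothers for 66 h at 20 °C. About 20000 hatched larvae were pooled per culture and fed Dam-deficient bacteria in liquid for 2.5 h. RNAi was partial: after 2 generations on mrg-1 RNAi plates, 30% to 50% of the adult progeny were sterile. No expression was measured, so the intestinal origin and the loss of mrg-1 or cec-4 product could not be checked against RNA.

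Libraries held 2240348 to 18553316 nuclear reads, and the median bin of the arm held 136 to 467. The 3 wild-type Dam::EMR-1 libraries were the shallowest group, at 2240348 to 3082222 reads. Between 1 and 36 of the 698 bins were empty per library, with the most, 5.16%, in replicate 1 of Dam::EMR-1 in cec-4.

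In wild type the arm was a region of Dam::EMR-1 methylation above the control. It makes up 6.96% of the nuclear bins and took 10.95%, 8.64% and 10.03% of the Dam::EMR-1 reads in replicates 1, 2 and 3. In the GFP::Dam libraries it took 3.58%, 4.96% and 4.80%. All 3 Dam::EMR-1 shares lay above the arm's share of bins and all 3 GFP::Dam shares below it. The 95% Wilson interval of a single library was narrow, for example 10.91% to 10.99% in replicate 1. Such intervals treat every read as independent. PCR copies are not independent molecules, so the intervals are too narrow even for counting error, and they leave out the spread between replicates.

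Bin by bin, 310 of the 696 arm bins that passed the filter on low counts were called higher in Dam::EMR-1 than in GFP::Dam in wild type. This is 44.5% of the arm's bins, against 25.4% of the 9960 tested genome-wide. Another 64 bins, or 9.20%, were called lower, against 29.0% genome-wide. Calls rest on edgeR's quasi-likelihood test with a Benjamini-Hochberg adjusted p under 0.05 over all nuclear bins. In windows of 100 kb, 41 of 70 were higher and 4 lower, against 34.7% and 42.2% of 1004 windows genome-wide. The median fitted log2 ratio of 10 kb bins was 1.43 on the arm and -0.11 over all bins. The 310 higher bins formed 115 runs, and 208 of them lay in runs of 3 or more. The longest runs were 110 kb each. One, at chrV:17130001-17240000, holds the chemoreceptor genes srh-102, srbc-25, srh-159, srz-47, srz-96 and srh-236. Its first bin is part of an RNA gene array where read assignment is uncertain. The other, at chrV:20600001-20710000, holds the collagen gene col-163, the molting gene mlt-11 and klf-2, which encodes a Krüppel-like factor. It also holds the chemoreceptor genes srz-18 and srxa-15. The 64 lower bins were scattered in 44 runs, none longer than 30 kb.

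The lower bins were narrow stretches of strong GFP::Dam methylation. Their median CPM, the count scaled to library size, was 141 in GFP::Dam and 20.1 in Dam::EMR-1, against 29.9 and 156 in the higher bins. These medians describe bins chosen on that same contrast. Lower bins held 2.55 protein-coding genes and 0.281 pseudogenes per bin, and higher bins 2.30 and 0.765. A chemoreceptor gene had its midpoint in 33.2% of the higher bins, in 21.9% of the lower bins and in 23.8% of the bins not called.

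The lowest ratio of the arm was at asp-1, an aspartic protease gene of the intestine (chrV:19049562-19050752), in the bin chrV:19050001-19060000. In wild-type replicates 1 to 3 Dam::EMR-1 gave 11, 71 and 14 reads there, and GFP::Dam gave 5061, 1447 and 12766. The groups did not overlap. The fitted log2 ratio was -6.21 ± 1.19 (SE; edgeR adjusted p = 0.000390). The signal sat on the gene: the 1 kb bin that starts at 19050001 held 18221 of the bin's 19274 wild-type GFP::Dam reads and 91 of its 96 Dam::EMR-1 reads.

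Among the named bins, at most 1 per 100 kb, the next lowest was that of cpl-1, a cathepsin L cysteine protease gene (chrV:16592572-16595346). Its reads were 15, 121 and 4 for Dam::EMR-1 and 5798, 1095 and 7938 for GFP::Dam, a log2 ratio of -5.40 ± 1.15 (edgeR adjusted p = 0.000827). Again every Dam::EMR-1 library was below every GFP::Dam library. The bin chrV:14010001-14020000 holds the metallothionein gene mtl-2, the endoderm GATA factor gene end-3 and the end of the helicase gene ddx-17. Its reads were 7, 88 and 24 for the emerin fusion and 2277, 2116 and 1635 for the control, a log2 ratio of -4.40 ± 0.81 (edgeR adjusted p = 0.000300).

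The arm bin with the most wild-type GFP::Dam reads summed over replicates lies in ret-1, the reticulon gene, which encodes a membrane protein of the endoplasmic reticulum. The bin chrV:14830001-14840000 had, in wild type, 209, 642 and 90 reads for Dam::EMR-1 and 17245, 3058 and 9760 for GFP::Dam. In replicate 3 the asp-1 bin held more. The ret-1 bin was not picked by the rule for named bins and was chosen after its values were seen. Its log2 ratio of CPM + 1 was -4.63 and -4.59 in wild-type pairs 1 and 3 and -1.54 in pair 2. Pair 2 was also the least negative in mrg-1 RNAi, at -2.43 against -5.56, and in cec-4, at -1.48 against -4.59 and -4.20, and in the combination, at -1.55 against -3.94 and -3.91. A pair joins both fusions of a background at 1 replicate number. The replicate difference was not limited to ret-1. In wild type pair 2 stood at -3.59 against -6.84 and -7.48 at asp-1, and at -2.45 against -6.66 and -8.18 at cpl-1. Not every named low bin showed it: from 18240001, pairs 1 to 3 were -3.29, -4.24 and -6.93.

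The other named low bins included par-1, a cell polarity kinase gene, at -4.41, and vha-13, a gene of the vacuolar proton pump, at -4.22. The bins of the nuclear hormone receptor gene nhr-111, the neuropeptide receptor gene npr-13, the F-box gene fbxa-84 and the acyltransferase-like gene oac-42 lay between -4.43 and -3.89. Over the 12 named low bins the log2 ratio ran from -6.21 to -3.81.

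The 6 bins of the intestine gene list on the arm did not all go one way. In wild type those of asp-1, mtl-2 and cpr-3 were called lower and that of fat-5 was called higher. Lower and higher calls made up 9.20% and 44.5% of the arm's bins and 29.0% and 25.4% of bins genome-wide. Over the whole genome the list had 35 of 53 bins lower and 4 higher. The bin of cpr-3, a cathepsin B-like protease gene, was at -2.81 ± 0.67 (edgeR adjusted p = 0.00186). That of acs-2, an acyl-CoA synthetase gene, was at -1.13 ± 0.48 (edgeR adjusted p = 0.0505) and not called, but was called, at -1.04, with the replicate number as a block. The bin of cdr-1, a cadmium-responsive gene, was at 0.62 ± 0.43 (edgeR adjusted p = 0.224). The bin of fat-5, a fatty acid desaturase gene, was at 1.41 ± 0.56 (edgeR adjusted p = 0.0406), and the call was lost without any one of 5 of the 6 wild-type libraries. Values are for bins, and the fat-5 bin is shared with the potassium channel gene twk-42.

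The named high bins had log2 ratios of 3.39 to 3.83 and mostly modest read counts. The bin of srh-303, a chemoreceptor gene (chrV:17831650-17833581), was the deepest of them. It held 1353, 2531 and 2325 reads of Dam::EMR-1 and 429, 457 and 557 of GFP::Dam, a log2 ratio of 3.45 ± 0.46 (edgeR adjusted p = 6.56e-05). Every Dam::EMR-1 library was above every GFP::Dam library, although the Dam::EMR-1 libraries were shallower. The chemoreceptor genes srw-44, srh-159 and srw-48 lay in bins at 3.59, 3.42 and 3.39. Bins of ebp-1, which encodes a microtubule plus-end binding protein, of fbxb-117, an F-box gene, and of nhr-288, a nuclear hormone receptor gene, were at 3.55, 3.49 and 3.68. The bin of mlt-4, named for a molting defect, was at 3.71 from 21, 96 and 60 reads against 8, 17 and 8.

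**Figure D1:**
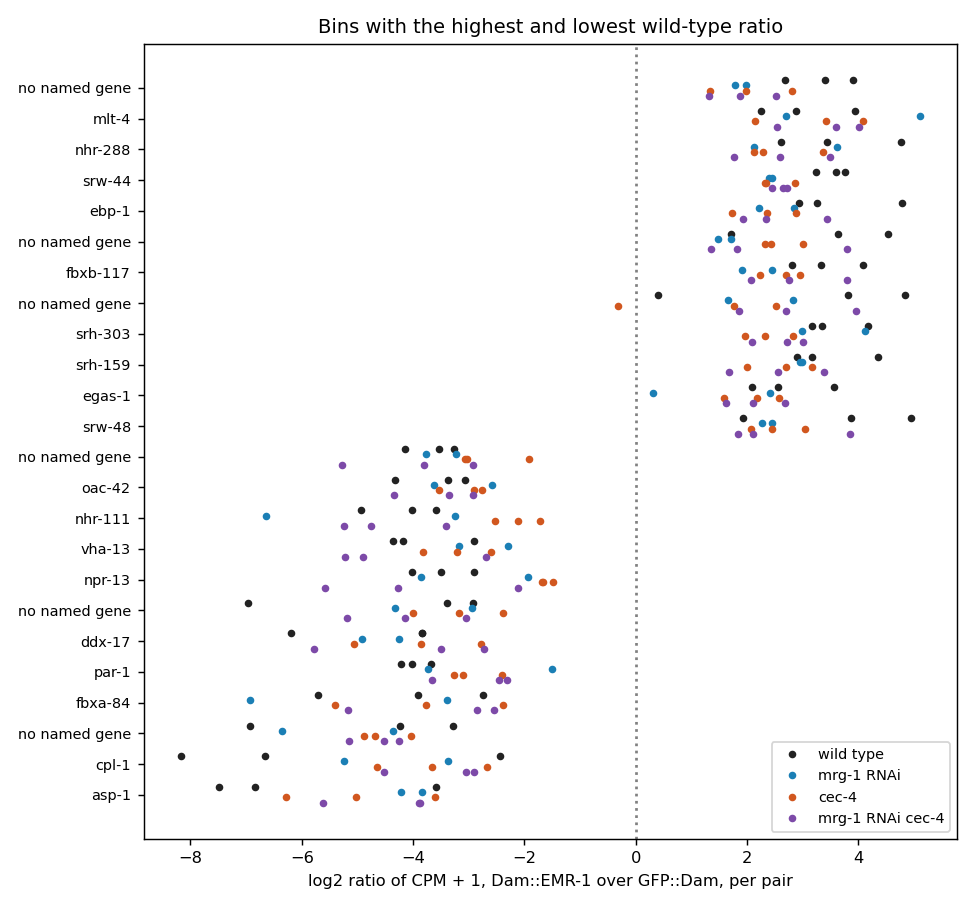
Log2 ratio of CPM + 1 of Dam::EMR-1 over GFP::Dam in each pair (points) for the 12 named high and 12 named low bins, coloured by background; labels give the gene that names the bin. Wild-type points of the asp-1 and cpl-1 bins spread over several log2 units, while all pairs of all backgrounds stay below 0 in the low bins.

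The deepest Dam::EMR-1 bin was within mlt-11, a protease-inhibitor gene needed for molting (chrV:20667205-20678537). It held 5649, 5438 and 7577 reads of Dam::EMR-1 and 2918, 1488 and 3751 of GFP::Dam. Its log2 ratio was 2.56 ± 0.96 (edgeR adjusted p = 0.0300), and the call was lost without any one of 4 of the 6 libraries. Of its 18664 wild-type Dam::EMR-1 reads, 10642 fell in the 1 kb from 20674001 and 5446 in the next. GFP::Dam was also highest in those bins, at 5203 and 2087 reads. By contrast the bin of grdn-1 at chrV:18590001-18600000 had 0 reads in all 22 libraries. The bins of the 5S ribosomal RNA and SL1 RNA array are repeated sequence, where read assignment is uncertain. The bin from 17130001 was called higher at 1.88 ± 0.45, and the one from 17120001 stood at 1.16 ± 0.70, not called. The one from 17110001 stood at -0.47 ± 1.17, with 193, 203 and 3731 GFP::Dam reads in wild-type replicates 1 to 3. Replicate 3 also held the most GFP::Dam reads in that bin in each other background. A further ribosomal RNA bin, from 17420001, was called higher at 2.33 ± 0.54 (edgeR adjusted p = 0.00150).

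**Figure D2:**
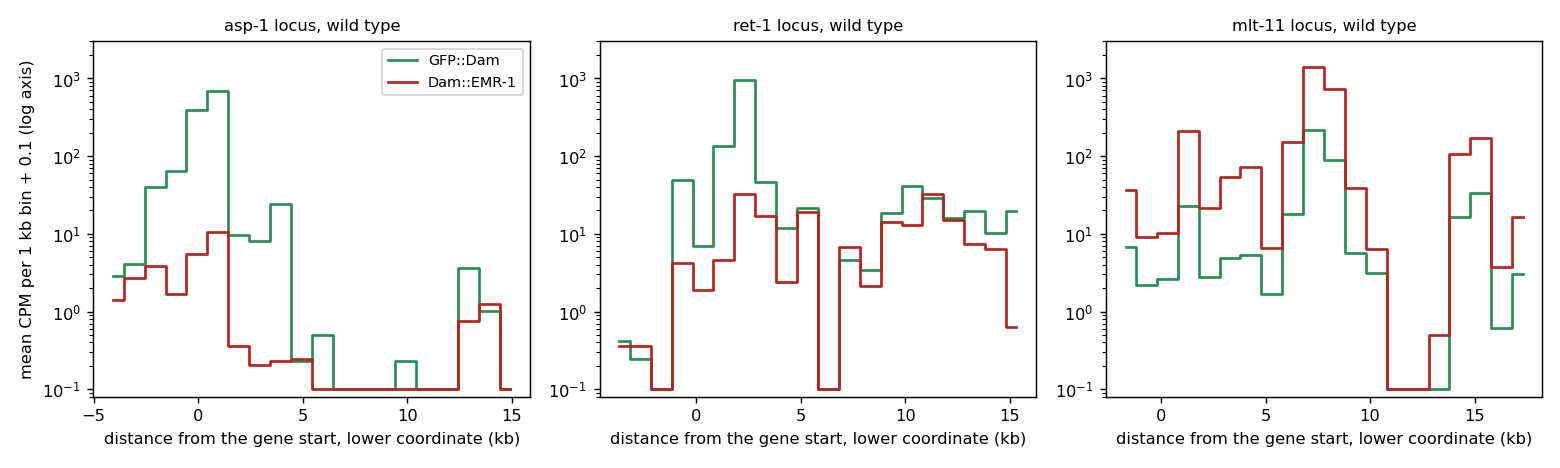
Mean CPM + 0.1 per 1 kb bin on a log axis against distance from the gene start, for wild-type GFP::Dam (green) and Dam::EMR-1 (red) at asp-1, ret-1 and mlt-11. The GFP::Dam peaks of asp-1 and ret-1 stand above Dam::EMR-1 in the same bins, and the mlt-11 peak is higher in Dam::EMR-1. Dam::EMR-1 at ret-1 is spread over many bins.

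Gene families of the arm are given by their counts of called bins. The 329 chemoreceptor genes fell in 194 bins, of which 103 were called higher and 14 lower in wild type, with a median log2 ratio of 1.86. The arm's other 502 tested bins gave 207 higher and 50 lower, with a median of 1.28. Within the family, srh genes took 71 bins with 44 higher and 5 lower. The srz genes took 23 bins with 15 higher and 2 lower and a median of 2.26. The srw genes had 17 of 34 bins higher and 4 lower, and str genes 19 of 38 and 2. All 5 srsx bins were called higher, against 8 of 24 genome-wide. Some other families had few bins: srr had 0 of 3 higher, srg 1 of 4 and srj 1 of 3. The sri genes had 4 of 9 higher, near the share over all arm bins. C-type lectin genes, a family linked to defence and glycan binding, had 16 of 34 bins higher and 0 lower. Genes of F-box, MATH and BTB proteins, which act in protein degradation, had 18 of 54 higher and 4 lower, with a median of 0.91. Nuclear hormone receptor genes had 13 of 37 higher and 3 lower. Ribosome and proteasome genes had 0 of 4 higher and 3 lower. No list was tested as a set, and over all arm bins the shares were 44.5% and 9.20%.

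By the medians of 1 Mb sections, the ratio was highest between 18 and 19 Mb and lower on both sides. These were 0.62 from 14 Mb, 1.66 from 17 Mb, 2.18 from 18 Mb, 1.69 from 19 Mb and 1.53 from 20 Mb in wild type. There, 22 of 100 tested bins between 14 and 15 Mb were called higher and 23 lower. Between 17 and 18 Mb these were 55 and 4 of 100, and beyond 20 Mb 50 and 5 of 93. The arm was divided at 17440001 into an inner and an outer stretch of 349 bins each. In the inner stretch 127 bins were called higher and 44 lower, with a median of 0.97. In the outer stretch they were 183 and 20, with a median of 1.85. Chemoreceptor bins were mostly inner, with 138 there and 56 in the outer stretch. Whether chemoreceptor content bears on the difference between the stretches was not tested.

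**Figure D3:**
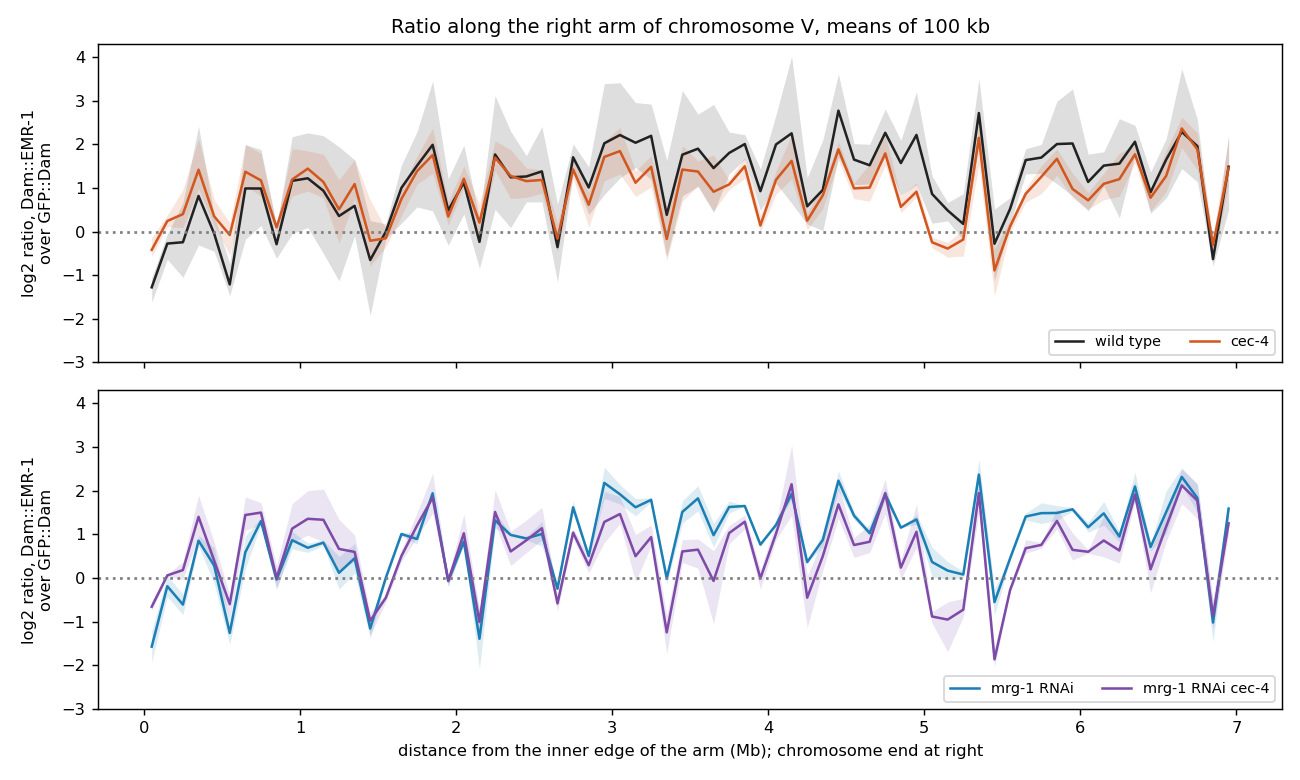
Mean log2 ratio of Dam::EMR-1 over GFP::Dam (CPM + 1) in 100 kb steps against distance from the arm's inner edge; lines are means over pairs and bands span the lowest to highest pair. The cec-4 line lies mostly above wild type in the first Mb and mostly below it between 3 and 6 Mb.

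The backgrounds asked what loss of CEC-4, depletion of MRG-1, or both did to the arm. One measure that does not depend on scaling was the gap between the arm and the centre of chromosome V. For each pair the log2 ratio of CPM + 1 was averaged over bins, and the centre's mean was subtracted from the arm's. A shift of a whole library cancels in it. The gap was 3.15, 2.71 and 3.31 in wild-type pairs 1 to 3 and 2.64 and 2.84 in mrg-1 RNAi pairs 2 and 3. It was 1.61, 1.59 and 1.35 in cec-4 and 1.44, 1.50 and 1.62 in the combination. No pair of either cec-4 background reached any pair with CEC-4.

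The gap was lower by 1.54 ± 0.17 (SE) on the log2 scale in cec-4 than in wild type (difference -1.54; limma adjusted p = 7.77e-06, over 17 parts and 10 contrasts). The exact two-sided permutation test over pairs gave p = 0.1, the smallest that 3 against 3 allows, and 0.25 adjusted over 5 contrasts. Within replicate numbers the difference ran from -1.96 to -1.12. The centre's own mean log2 ratio was -1.92 ± 0.57 (SD, n = 3) in wild type and -0.61 ± 0.42 (n = 3) in cec-4. The arm's was 1.13 ± 0.75 and 0.90 ± 0.29, and these levels depend on how libraries are scaled. For mrg-1 RNAi the difference from wild type was -0.31, with a 95% interval of -0.73 to 0.10 (limma adjusted p = 0.232). It was called, at -0.49, without wild-type replicate 2.

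The arm's own mean ratio did not pass the test in any background. It was 1.87, 0.38 and 1.14 in wild type and 0.87 in both mrg-1 RNAi pairs. It was 0.87, 0.64 and 1.21 without CEC-4, and 0.88, 0.46 and 0.46 in the combination. The groups overlapped, and wild type had the widest spread. Against wild type the differences were -0.23 ± 0.25 in cec-4 (limma adjusted p = 0.716), -0.26 ± 0.28 in mrg-1 RNAi (0.716) and -0.53 ± 0.25 in the combination (0.138). Of the 18 chromosome parts, 33.3% were called higher in cec-4 and 27.8% in the combination. These levels depend on scaling. With each pair centred on its mean over all nuclear bins, the arm was lower by 0.61 ± 0.14 in cec-4 (difference -0.61; limma adjusted p = 0.00156) and by 0.69 in the combination (difference -0.69; limma adjusted p = 0.000549). With mrg-1 RNAi alone it was -0.18 (limma adjusted p = 0.375). The step from -0.23 to -0.61 and from -0.53 to -0.69 is a rise of the genome mean itself. The centre of V, for one, had a mean of -1.92 in wild type and -0.61 in cec-4. Centred calls are thus relative and do not separate a lower arm from higher other parts.

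The read shares, which involve no ratio of fusions, were lower for Dam::EMR-1 in both cec-4 backgrounds. A share is relative to the library total, so it also falls when other regions gain reads. The arm took 7.68%, 8.16% and 7.98% of Dam::EMR-1 reads in cec-4 and 7.58%, 7.63% and 7.21% in the combination. In mrg-1 RNAi it took 9.67% and 9.36%. No cec-4 value reached the lowest wild-type value of 8.64%. The mean difference from wild type was -1.93 percentage points in cec-4 and -2.40 in the combination, and exact permutation over libraries (two-sided) gave p = 0.1 for each, the smallest possible, and 0.167 adjusted over 5 contrasts. The GFP::Dam shares were 4.45% ± 0.75 (SD, n = 3) in wild type and 4.27% ± 0.69 (n = 3) in cec-4, and overlapped in every contrast. The combination and cec-4 alone differed by -0.47 points for Dam::EMR-1 without overlap (exact permutation p = 0.1, and 0.167 adjusted over 5 contrasts).

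**Figure D4:**
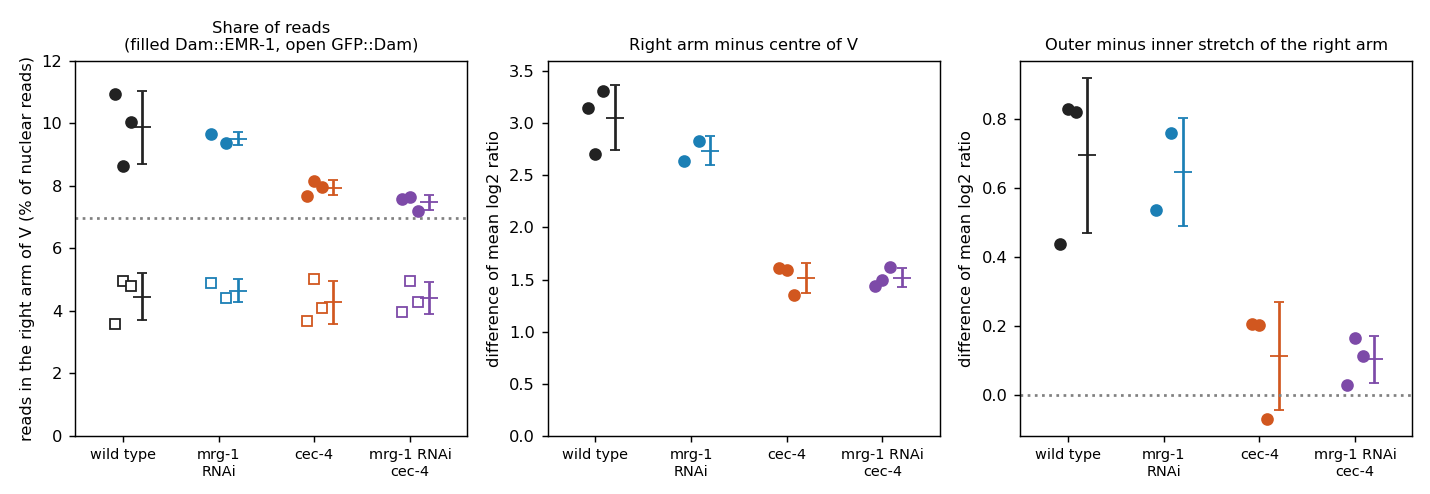
Left, the arm's percent of nuclear reads per library (filled circles Dam::EMR-1, open squares GFP::Dam, dotted line 6.96%, the arm's share of bins); middle and right, the difference of mean log2 ratio between arm and centre of V and between the arm's outer and inner stretch, per pair. Bars are mean ± SD; the arm-to-centre gap has a mean of 3.05 in wild type and 1.52 in both cec-4 backgrounds.

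The rise from the inner to the outer stretch was also smaller without CEC-4. Outer minus inner was 0.44, 0.83 and 0.82 in wild type and 0.54 and 0.76 in mrg-1 RNAi. It was 0.21, 0.20 and -0.07 in cec-4 and 0.03, 0.17 and 0.11 in the combination. Neither cec-4 background overlapped wild type. The difference from wild type was -0.58 ± 0.12 in cec-4 (limma adjusted p = 0.000103) and -0.59 ± 0.12 in the combination (limma adjusted p = 8.62e-05). Exact permutation gave p = 0.1 for each, and 0.25 adjusted over 5 contrasts. For mrg-1 RNAi it was -0.05, with a 95% interval of -0.32 to 0.23. When reads were summed over each stretch before the ratio, which gives deep bins more weight, the cec-4 difference was -0.25 and the combination's -0.24, and neither was called. Depth was lowest in wild-type Dam::EMR-1, and with every library thinned to the shallowest the cec-4 difference was -0.57.

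This flattening was not particular to the right arm of V. All 12 chromosome arms were called lower in cec-4 than in wild type for outer minus inner, from -0.77 on X left to -0.31 on IV right, and 11 of 12 were in the combination. The right arm of V was the 5th from the lowest.

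By 1 Mb window the difference was uneven along the arm. Without centring, no window was called in cec-4 against wild type, where 36.9% of the genome's 103 windows were called higher and 3.88% lower. Nor was any arm window in the combination against mrg-1 RNAi, where 2.91% of windows were lower genome-wide. Other choices changed both counts. With the replicate block 2 arm windows were called lower in each of these contrasts. With summed reads they were 2 in cec-4 and 1 in the combination against mrg-1 RNAi, and in cec-4 they were 3 with a pseudocount of 5 and 2 with medians. Without wild-type replicate 2, 3 were called lower in cec-4. Centring gave 5 and 4. In cec-4 the difference without centring was 0.47 in the window from 14 Mb and between -0.69 and -0.62 in those from 17, 18 and 19 Mb. In the combination the windows from 17, 18 and 19 Mb were called lower, at -1.18, -0.84 and -1.06 (limma adjusted p = 0.00450, 0.0320 and 0.00206), against 13.6% of windows genome-wide, with 29.1% higher. With pairs centred on the genome mean, the 5 windows from 16 Mb outwards were called lower in both cec-4 backgrounds. Lower here is relative to a genome mean that was itself higher than in wild type. The cec-4 differences were then -1.07 and -1.01 at 18 and 19 Mb. The windows from 14 and 15 Mb stood at 0.09 and -0.33 and were not called. In the window from 19 Mb, centred wild-type values were 1.56, 1.31 and 1.64, and cec-4 values 0.49, 0.58 and 0.43.

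**Figure D5:**
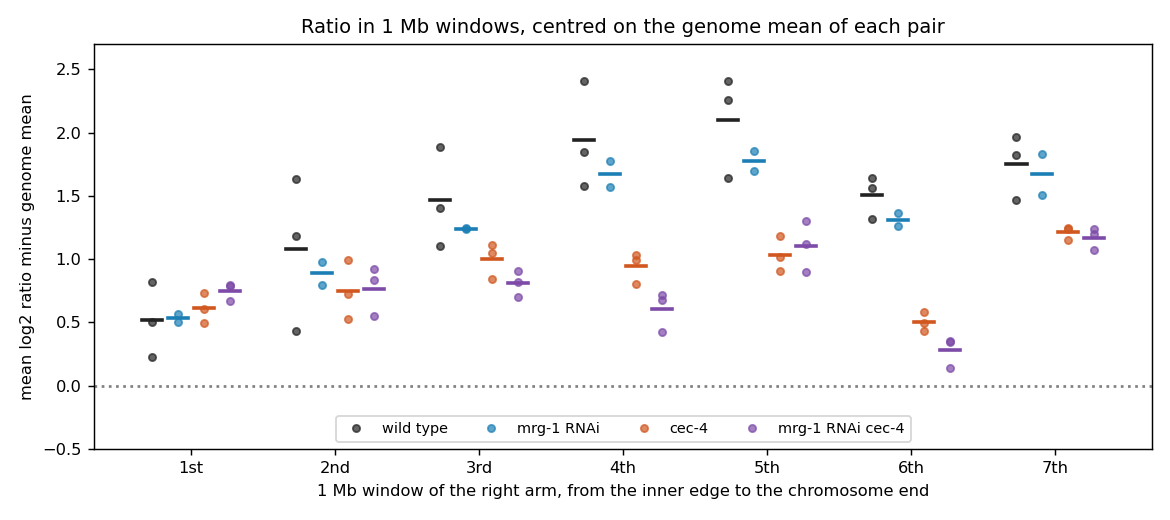
Mean log2 ratio minus the genome mean of the same pair, for the 7 windows of 1 Mb from 14 Mb to the chromosome end (points are pairs, lines their means, colours backgrounds). Wild type and mrg-1 RNAi lie above both cec-4 backgrounds from the 4th window on, and in the 1st both cec-4 backgrounds overlap wild type.

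At finer scale few sites could be resolved. No 10 kb bin on the arm or elsewhere was called between backgrounds by edgeR. On the arm 20 bins had an unadjusted p under 0.05 in cec-4 against wild type, 34 in the combination and 3 in mrg-1 RNAi. DESeq2 called 2 arm bins lower in the combination and 0 in either other background. In windows of 100 kb, 2 of 70 were called lower in cec-4 and 0 higher, against 1.10% and 4.58% genome-wide. In the combination 9 were lower and 0 higher, against 4.98% and 12.5%. With the replicate number as a block the lower windows were 11 and 18, and 1 window was called higher in each. Leaving out 1 library gave 0 to 5 and 3 to 7 lower windows. With library sizes in place of TMM no window was called lower in either, and with only the groups of the contrast in the fit none was in cec-4. The lower windows named next were thus not called with library sizes.

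The window chrV:18800001-18900000 was lower in both. It holds emb-4, a splicing-associated helicase gene, wars-1, a tryptophanyl-tRNA synthetase gene, and ceh-51, a homeobox gene of the mesoderm. Dam::EMR-1 gave 2439, 1710 and 1517 reads in wild type and 2399, 1974 and 2419 in cec-4, from deeper libraries. GFP::Dam gave 821, 1237 and 1325 in wild type and 1454, 1573 and 3027 in cec-4. The log2 ratio was 2.12 in wild type, 1.54 with mrg-1 RNAi, 0.71 for cec-4 and 0.86 for the combination. The cec-4 difference was -1.41 ± 0.40 (edgeR adjusted p = 0.0447) and the combination's -1.27 ± 0.40 (edgeR adjusted p = 0.0352).

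The other cec-4 window, chrV:19900001-20000000, holds chk-2, a meiotic checkpoint kinase gene, and the chemoreceptor genes srh-171, srh-172, srh-173 and srh-183. It was lower by 1.23 (difference -1.23 ± 0.36; edgeR adjusted p = 0.0491). In the combination the window chrV:17300001-17400000 had the largest difference, -1.75 ± 0.41 (edgeR adjusted p = 0.00951). It holds the F-box genes fbxa-134, fbxa-185, fbxa-188, fbxa-189 and fbxb-7. Dam::EMR-1 gave 1003, 2302 and 3367 reads there in the combination against 4409, 2126 and 2004 in wild type. The combination's libraries were deeper, at 3335730, 4721460 and 11159999 nuclear reads against 2500662, 3082222 and 2240348. These raw counts are thus not on one scale. Over all F-box, MATH and BTB bins of the arm the median difference of the combination from wild type was -0.76, against -0.45 over all arm bins. Those values share wild-type libraries with the cec-4 contrast, where the medians were -0.37 and -0.34. Genome-wide the family's median difference was -0.68 in the combination and -0.35 in cec-4, against 0.17 over all bins in each. The lower family median was thus not particular to the arm.

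Many of the bins called in wild type were called in the other backgrounds too. Of the 310 higher bins, 215 were called higher in cec-4, which is 69.4% of the wild-type list and 93.1% of the 231 in cec-4. Of all tested bins, 21.1% were called higher and 20.3% lower in cec-4. Genome-wide, 18.5% of bins were higher and 21.1% lower in mrg-1 RNAi, and 23.7% and 22.9% in the combination. All 12 named low bins were called lower with mrg-1 RNAi, in wild type or cec-4 larvae alike, and 11 in cec-4 alone. In the last, npr-13 stood at -2.10 ± 1.03 (edgeR adjusted p = 0.105). The asp-1 bin stayed low, at -4.32 with mrg-1 RNAi, -5.72 for cec-4 and -4.70 for the combination. Among the named high bins 8 were called with mrg-1 RNAi, 11 for cec-4 and 12 for the combination.

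Against other chromosome parts, the arm in wild type was called higher than 13 of the 17 others. The exceptions were both outer parts of I, the left of II and the right of IV. It was above the left arm of V by 0.54, 0.19 and 0.36 in wild type (mean 0.36; limma adjusted p = 0.00777). That call was lost with medians of bins, at 0.22, and with the outer 25% of each chromosome as its arm, at 0.15. In cec-4 this gap was 0.10, 0.04 and 0.09, and in the combination 0.02, -0.03 and -0.11. The combination differed from wild type by -0.41 ± 0.13 (limma adjusted p = 0.0295) and cec-4 by -0.29, with a 95% interval of -0.58 to 0.0034 (limma adjusted p = 0.111). The combination's call was lost without wild-type replicate 3, at -0.41, or without any one of its own pairs, at -0.44 to -0.37, and with medians of bins it was -0.29.

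The interaction between mrg-1 RNAi and the cec-4 deletion passed no test with all libraries and no centring. For arm minus centre it was 0.32, with a 95% interval of -0.24 to 0.87 (limma adjusted p = 0.383). It was called, at 0.49, without wild-type replicate 2. For outer minus inner it was 0.04, with a 95% interval of -0.33 to 0.41. For the arm's mean it was -0.05, with an interval of -0.80 to 0.70. The inner edge is a position, not a step in the data. The 3 bins just inside stood at -2.14, -1.28 and 0.03 in wild type and the 3 just outside at 0.61, -0.02 and 1.50. The last bin, with pbo-5, a proton-gated channel gene, was at 1.42 ± 0.80 (edgeR adjusted p = 0.137), and was called, at 1.48, with the replicate block.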

How the data were processed

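The deposited count tables give, for 1, 10 and 100 kb bins, unnormalized counts of reads in build ce11, which is named in the submitters' processing notes. The authors' deposited log2 table of 10 kb bins gives a single log2 ratio per background, and its arm means were 1.60 in wild type, 1.06 with mrg-1 RNAi, 1.19 for cec-4 and 0.82 for the combination. Not given in the sources used here are the aligner, its filters and the handling of repeats. Gene positions and names came from RefSeq's annotation of the same assembly, as gene spans without exons.

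Counts were tested with edgeR 4.0.16 in R 4.3.3 (TMM scaling, its filter on low counts, quasi-likelihood) in 1 fit over 22 libraries and 8 groups. A contrast of backgrounds compares the ratio of fusions. Pair values average log2 ratios of CPM + 1 between same-numbered libraries over 10 kb bins, and were tested with limma 3.58.1 and by exact two-sided permutation. The SE of an edgeR fold change is its size divided by the square root of F. Scripts were tested on simulated data.

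Per the labels the strains of a replicate were cultured side by side, so numbers pair the samples. Deviations of same-numbered libraries from their group means correlated above 0.1 over arm bins in 15 of 15 GFP::Dam and 11 of 15 Dam::EMR-1 comparisons. The median correlations were 0.71 and 0.32. The main edgeR fit nevertheless had no term for the replicate number. Pair values used the number to join the fusions, but their main limma fits and the permutations did not match backgrounds by it. Only the replicate block, an alternative, did.

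Members, lists, tests and the naming rule were chosen with earlier results of these data known. Named were the 12 highest and 12 lowest called bins in wild type, with every pair on the same side of 0 and at most 1 per 100 kb. A gene named a bin if it overlapped it most, by at least 1 kb, and the listed intestine genes and the edge, deepest, emptiest and ribosomal RNA bins were always named. Alternatives were DESeq2 1.42.0, other scalings, filters, bin sizes, pseudocounts, summaries and boundaries, a replicate block, and each library left out. Thinning to the shallowest library was added after seeing the data. No sequence is shown because no genome was used here.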

Additional observations from a re-analysis of the deposited data

How the results depend on the processing

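Calls of single bins rest on 2 or 3 libraries a group, and whether depth or spread between replicates limits the 10 kb calls between backgrounds was not tested. Of 205 values of named bins under alternatives that keep every library, 198 kept direction and side of the threshold, as did 199 of 210 with a library left out. The bin from 17110001 turned from -0.47 to 0.81 with the replicate block, and ran from -0.96 to 1.84 with a library left out. Causes were not tested except where the construction shows them.

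The share of arm bins called higher in wild type was 7.68% in 1 kb bins. The share called lower was 5.71% in 100 kb windows and 5.65% with the arm's start moved 2 Mb outwards. With library sizes in place of TMM, mrg-1 RNAi had 141 higher bins, cec-4 had 38 lower bins, and the 100 kb windows called lower against wild type were 0 in cec-4 and 0 in the combination. With only the groups of the contrast in the fit, higher bins were 127 in mrg-1 RNAi and 145 in cec-4, the lower windows were 0 in cec-4, and 1 window was higher in the combination. DESeq2 called 2 bins lower in the combination and 7 windows lower in cec-4, and without the ribosomal RNA bins edgeR called 5.

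The replicate block gave 11 lower and 1 higher window in cec-4 and 18 and 1 in the combination. It gave 2 lower 1 Mb windows in cec-4 and 2 in the combination against mrg-1 RNAi. It turned arm minus left arm for mrg-1 RNAi against wild type to 0.010 from -0.033, made the wild-type calls of the acs-2 and pbo-5 bins (-1.04 and 1.48), and changed no other call. Lower 1 Mb windows in cec-4 were 3 with a pseudocount of 5, 5 after centring, 2 with summed reads and 2 with medians. In the combination they were 5 after centring, and against mrg-1 RNAi 4 after centring and 1 with summed reads.

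Centring on the genome mean moved the arm's mean to -0.61 in cec-4, -0.69 in the combination and -0.51 in the combination against mrg-1 RNAi, all called, and the interaction to 0.10. With the outer 25% of each chromosome as its arm, the combination's arm mean was -0.78 and called. The deposited log2 table gave -0.23 for the combination against mrg-1 RNAi. Arm minus centre between the combination and cec-4 was -0.028 with summed reads and -0.086 with outer parts set at 25% of the chromosome. Arm minus left arm fell below the threshold with medians in wild type (0.22), mrg-1 RNAi (0.24) and the combination against wild type (-0.29), and with the outer 25% in wild type (0.15) and mrg-1 RNAi (0.12). The outer 25% gave -0.15 in cec-4, -0.34 in the combination and -0.46 in the combination against mrg-1 RNAi, the last 2 called, and summed reads -0.29 for the last, called. For mrg-1 RNAi against wild type medians gave 0.025. Outer minus inner with summed reads was 0.56 in cec-4 and 0.57 in the combination, both called, and was not called against wild type (-0.25 and -0.24) or, for the combination, against mrg-1 RNAi (-0.18). Between the combination and cec-4 it was 0.0020 with a pseudocount of 5 and 0.012 with summed reads.

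With a library or pair left out, mrg-1 RNAi had 76 to 175 higher and 17 to 50 lower bins, the fewest higher without GFP::Dam replicate 3. Lower windows ran from 0 to 5 in cec-4 and 3 to 7 in the combination, where higher windows were 0 to 1. The arm's mean ran from -0.60 to 0.14 in cec-4, -0.63 to 0.11 in mrg-1 RNAi and -0.91 to -0.16 in the combination, each lowest without wild-type replicate 2, and its interaction from -0.42 to 0.33. Arm minus centre ran from -0.49 to -0.19 in mrg-1 RNAi, from -0.083 to 0.050 between the combination and cec-4, and its interaction from 0.19 to 0.49. Arm minus left arm ran from 0.28 to 0.38 in mrg-1 RNAi. Against wild type it ran from -0.38 to -0.20 in cec-4, -0.12 to 0.058 in mrg-1 RNAi and -0.49 to -0.32 in the combination, and its interaction from -0.17 to 0.0029. Outer minus inner ran from -0.18 to 0.063 in mrg-1 RNAi against wild type, -0.10 to 0.036 between the combination and cec-4, and its interaction from -0.073 to 0.17. Higher 1 Mb windows were 0 to 1 in each cec-4 background, and lower ones 0 to 3 in cec-4 and 2 to 6 in the combination.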
